A study of Mus musculus with 31 samples.

Results

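A module of 35 genes of the integrated stress response and of serine synthesis was described in mouse breast tumours of 2 models. The genes were chosen by name and matched to the symbol that follows the colon in the first column of the raw count table, and 35 of 35 were found among its 39017 genes. Bulk RNA sequencing of orthotopic syngeneic tumours gave 31 libraries in 8 groups, formed by the models titled 4T1 and MT and by 4 arms in each. Control mice received saline and PBS, the phenformin arm saline and phenformin, the poly I:C arm poly I:C and PBS, and the combination arm poly I:C and phenformin. Each group held 4 libraries except phenformin in 4T1, which held 3. All were labelled wild type, and the labels used here give no age, dose or number of days. 4T1 is a mammary carcinoma line of BALB/c origin, phenformin is a biguanide that inhibits mitochondrial complex I, and poly I:C mimics viral double-stranded RNA and engages Toll-like receptor 3. The series asks how complex I inhibition together with Toll-like receptor activation acts on the tumour microenvironment.

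The integrated stress response is a shared pathway in which several kinases phosphorylate the translation factor eIF2. General protein synthesis falls, while the mRNA of the transcription factor ATF4 is translated more. ATF4 then switches on genes for amino acid synthesis, amino acid import and tRNA charging, among them the enzymes that make serine from a glycolytic intermediate and feed one-carbon units into the mitochondrial folate cycle. Respiratory chain inhibition, amino acid shortage and double-stranded RNA are known inducers. ATF4 itself is controlled mainly at translation, so the level of Atf4 mRNA is an incomplete measure of the pathway.

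Total counts ranged from 12160110 to 19849915 reads per library. Levels are given in CPM, a gene's reads as a share of the library, with library sizes scaled by the TMM method. The groups follow the sample titles, because the strain and cell line tags give the opposite model from the title: 4T1-titled libraries are tagged FVB and MT4788, and MT-titled libraries are tagged BALBc and 4T1-537. The class II gene H2-Ea-ps, which BALB/c mice carry in working form and FVB mice in defective form, lay at 222 to 1011 CPM in the 4T1-titled libraries and at 5.42 to 50.9 CPM in the MT-titled ones. The MT libraries were not of 1 kind. Sox10, a neural crest and basal mammary transcription factor, was at 33.5 to 218 CPM in 6 of them (control replicates 1, 2 and 3 and phenformin replicates 1, 2 and 3). It was at 0.671 to 3.06 CPM in the other 10, where the basal keratin Krt5 was at 330.0 to 2452 CPM. Krt5 was at 21.4 to 37.5 CPM in the 5 libraries with Sox10 above 100 CPM. The remaining Sox10-high library, phenformin replicate 3 with Sox10 at 33.5 CPM, had Krt5 at 1611 CPM and was grouped by Sox10 alone. No MT library with poly I:C was of the Sox10-high kind. In 4T1, Acta1, the skeletal muscle actin, exceeded 10 CPM in 2 poly I:C, 2 combination and 1 phenformin library and in no control. Values without these libraries are given beside the results they touch.

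ATF4 pairs with C/EBP proteins on a composite element, written here as TGATGNAA. The 250 bases before the RefSeq gene starts (GRCm38.p6) were searched on both strands, and 29 of the 35 members had an entry. The element was found before 10 of these 29 (34.5%): Atf3, Nupr1, Asns, Pck2, Chac1, Slc7a11, Vldlr, Fgf21, Aars and Gars. Among all 27025 genes with an entry, 1056 (3.91%) held it. The members were chosen by name as genes of this pathway, so a higher share may come with the choice and is no result of these data. A match describes the letters in this window and does not show binding. Some windows reach into annotated exons of the gene, by all 250 bases for Nupr1, by 202 for Aars and by 45 for Asns. The window of Vldlr does so by 179 bases, at the second of its 2 starts, the first having no match. Of the members with a match that passed any test, 5 among those with the smallest p-values are shown, since they include the members with the widest differences between the models. Each line gives 30 bases in the direction of transcription, 5′ to 3′, with the matched letters in capitals. Asns and Slc7a11 hold the element as written, and the other 3 hold its reverse complement.
Vldlr: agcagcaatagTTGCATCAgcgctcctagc
Asns: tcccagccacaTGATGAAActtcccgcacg
Nupr1: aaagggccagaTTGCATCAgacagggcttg
Slc7a11: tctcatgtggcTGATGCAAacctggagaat
Pck2: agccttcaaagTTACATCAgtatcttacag
These lie at chr19:27216809-27216838 (plus strand), chr6:7693214-7693243 (minus), chr7:126625562-126625591 (minus), chr3:50443661-50443690 (minus) and chr14:55540152-55540181 (plus), in the same order. Slc7a11 has a further match between the stretch shown and its start.

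The widest differences within the module lay between the untreated models. In control tumours, 23 of the 33 members tested differed between 4T1 and MT, 19 lower and 4 higher in 4T1 (edgeR quasi-likelihood test, Benjamini-Hochberg adjusted p under 0.05 over 18956 genes). The models differ widely at large: 51.9% of all genes tested were called in this comparison, 25.2% lower and 26.7% higher in 4T1. The median log2 difference was -0.66 over the tested members and 0.00 over all genes. The share of all genes whose groups did not overlap was not taken, for this or any later comparison. Statements on overlap below describe the levels and do not set the members apart. Strain, tumour line and tissue makeup differ together between the models and cannot be told apart here. In bulk tissue, fewer cells of a type and less RNA per cell cannot be told apart either.

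**Figure D1:**
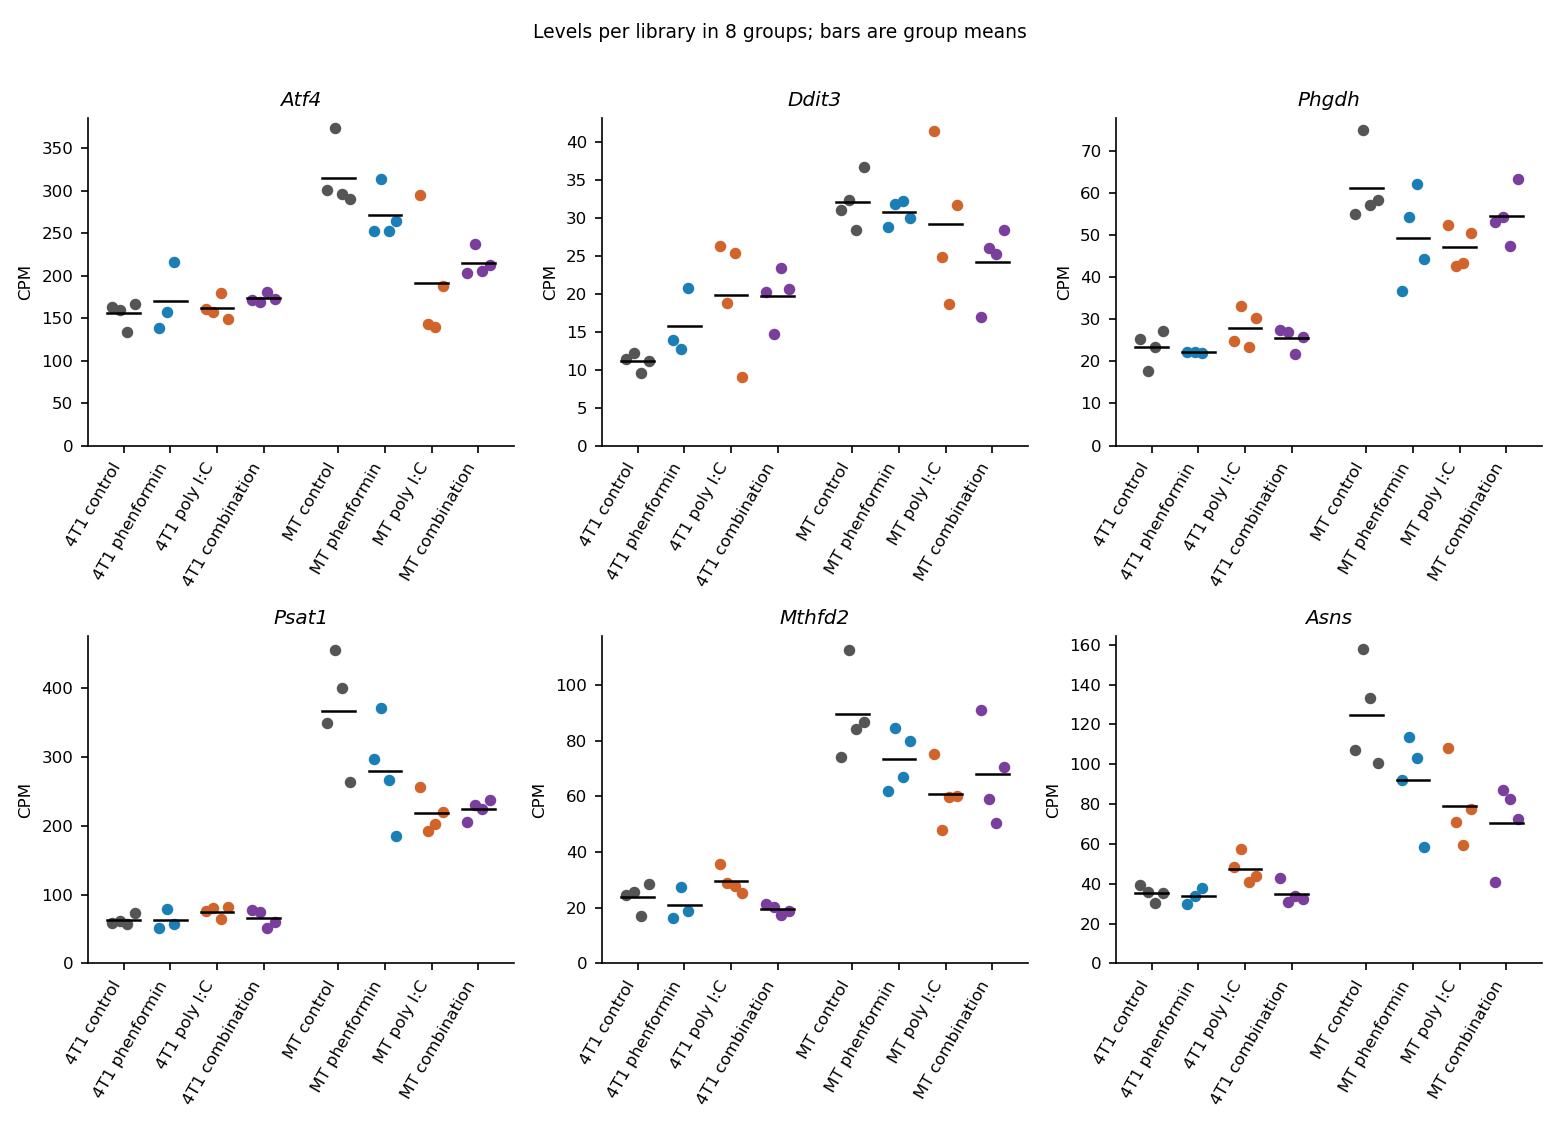
Level (CPM, linear axis from 0) of Atf4, Ddit3, Phgdh, Psat1, Mthfd2 and Asns in each library of the 8 groups; points are libraries, bars are group means, and colours are arms. Every MT control lies above every 4T1 control for these 6 genes, and the MT arms with poly I:C sit below the MT controls for Psat1 on average. The share of all genes without overlap between the controls was not taken.

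Among the regulators, Atf4, the effector transcription factor of the pathway, was at 163, 159, 134 and 167 CPM in the 4T1 controls and at 301, 374, 296 and 290.4 CPM in the MT controls. The groups did not overlap, and the log2 difference was -1.02 ± 0.17 (SE; adjusted p = 1.86e-05). Ddit3, which encodes the proapoptotic factor CHOP, was at 11.5, 12.2, 9.62 and 11.2 CPM in 4T1 and 30.98, 32.4, 28.4 and 36.7 CPM in MT, also without overlap (-1.53 ± 0.25, adjusted p = 2.01e-05). Trib3, a pseudokinase that restrains ATF4 and CHOP, was at 15.8, 17.1, 12.9 and 19.8 CPM against 54.1, 83.5, 45.9 and 27.0 CPM (-1.68 ± 0.43, adjusted p = 0.0018). MT control replicate 4, the one with low Sox10, was the lowest of the MT controls for Trib3 and still above every 4T1 control. Atf5, Cebpb and Cebpg, further bZIP factors of the pathway, were lower in 4T1 by log2 differences of -0.94 ± 0.23, -1.05 ± 0.33 and -0.73 ± 0.13. Atf5 was at 61.8, 63.3, 54.4 and 53.2 CPM in the 4T1 controls and 105, 124, 80.0 and 136 CPM in the MT controls. Cebpb was at 108, 103, 119 and 150.5 CPM in the 4T1 controls and 266, 328, 251 and 151 CPM in the MT controls, and Cebpg at 95.4, 109, 109 and 89.6 CPM in the 4T1 controls and 164, 170.5, 153 and 179 CPM in the MT controls. None of the 3 overlapped, and MT control replicate 4 was the nearest to 4T1 for Cebpb. Nupr1, a small stress-induced chromatin protein, went the other way, at 90.5 to 115 CPM in 4T1 and 18.4 to 36.3 CPM in MT (2.15 ± 0.26, adjusted p = 2.62e-07). Atf3, a stress-induced repressor, and Ppp1r15a, which encodes the eIF2 phosphatase subunit GADD34, did not pass the test (-0.55 ± 0.41 and -0.39 ± 0.30).

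The serine branch showed the smallest p of the module. Psat1, the aminotransferase of serine synthesis (GRCm38, chr19:15904678-15947337, minus strand), was at 59.0, 61.4, 57.2 and 73.7 CPM in the 4T1 controls and at 349, 455, 400.5 and 263 CPM in the MT controls. It was 5.84-fold lower in 4T1 (log2 -2.55 ± 0.19, adjusted p = 1.13e-10), with a wide gap between the groups. Phgdh, the dehydrogenase that opens the pathway, was at 25.3, 17.7, 23.4 and 27.3 CPM against 54.9, 74.8, 57.1 and 58.2 CPM. It was 2.62-fold lower in 4T1, again without overlap (-1.39 ± 0.15, adjusted p = 5.99e-08). Psph, the phosphatase of the last step, did not follow: its log2 difference was 0.17 ± 0.18 (adjusted p = 0.436), with 25.9 to 31.6 CPM in 4T1 and 21.0 to 29.2 CPM in MT.

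All 3 module members of the mitochondrial folate cycle were lower in 4T1, beside 25.2% of all genes. Mthfd2, the dehydrogenase and cyclohydrolase that oxidises serine-derived one-carbon units, was at 24.5, 25.6, 17.2 and 28.5 CPM in 4T1 and at 74.0, 113, 84.4 and 86.9 CPM in MT (-1.90 ± 0.19, adjusted p = 1.75e-08). Shmt2, the mitochondrial hydroxymethyltransferase that splits serine, was at 74.6, 54.2, 53.1 and 82.6 CPM against 90.9, 119, 79.4 and 103 CPM. Its groups overlapped and the difference was smaller (-0.57 ± 0.16, adjusted p = 0.00423). Aldh1l2, the formyltetrahydrofolate dehydrogenase, was at 2.95 to 7.74 CPM against 11.1 to 21.0 CPM (-1.82 ± 0.44, adjusted p = 0.00118).

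Asns, asparagine synthetase and a long-known ATF4 target, was at 39.6, 35.9, 30.2 and 35.5 CPM in the 4T1 controls and at 107, 158, 133 and 100.5 CPM in the MT controls (-1.82 ± 0.22, adjusted p = 2.47e-07). The groups were far apart. Pck2, the mitochondrial enzyme that makes phosphoenolpyruvate, was only slightly lower in 4T1 (-0.41 ± 0.14, adjusted p = 0.0185). Cth, the cystathionine lyase that makes cysteine, was higher in 4T1 (12.1 to 18.9 against 3.29 to 5.61 CPM, 1.65 ± 0.36, adjusted p = 0.000466). Bcat1, the cytosolic branched-chain aminotransferase, did not pass the test (0.75 ± 0.65). Of the pair that senses or spends glutathione and amino acids, Sesn2, a leucine-binding brake on mTORC1, was lower in 4T1 (-1.07 ± 0.20, adjusted p = 6.36e-05), and Chac1, which degrades glutathione, was not called (0.30 ± 0.41). Sesn2 was at 6.51, 8.63, 5.95 and 7.70 CPM in the 4T1 controls and 14.7, 15.4, 16.4 and 13.8 CPM in the MT controls, and Pck2 at 31.7, 33.0, 29.5 and 36.2 CPM in the 4T1 controls and 44.6, 43.9, 49.6 and 35.1 CPM in the MT controls. The first pair of groups was separate and the second overlapped.

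Of the 6 transporters, 2 were higher in 4T1, none was lower and 4 were not called, beside 26.7% of all genes higher and 25.2% lower. Slc7a11, the light chain of the cystine importer, was at 65.1, 89.9, 105 and 71.8 CPM in the 4T1 controls and at 5.21, 5.18, 5.56 and 18.2 CPM in the MT controls. It was 9.77-fold higher in 4T1 (log2 3.29 ± 0.47, adjusted p = 2.51e-06), and the highest MT library was again control replicate 4. Slc38a2, a sodium-coupled neutral amino acid importer, was also higher (0.77 ± 0.14, adjusted p = 7.01e-05). It was at 332, 332, 274 and 264 CPM in the 4T1 controls and 182, 181, 159 and 183 CPM in the MT controls, with no overlap. Slc7a5 and Slc3a2, the light and heavy chains of the large neutral amino acid exchanger, were not called (-0.06 ± 0.28 and -0.07 ± 0.19), nor were the cationic amino acid transporters Slc7a1 (-0.28 ± 0.14) and Slc7a3 (-0.80 ± 0.57). Vldlr, a lipoprotein receptor and known ATF4 target, was at 5.86, 2.46, 5.74 and 4.16 CPM in 4T1 and at 306, 253, 246 and 144 CPM in MT. At 52.0-fold lower in 4T1 it had the widest difference of the tested members (-5.70 ± 0.58, adjusted p = 1.77e-08). Of the tRNA synthetases, Aars, Nars, Sars and Wars were lower in 4T1 (-0.66 ± 0.13, -1.08 ± 0.18, -1.05 ± 0.17 and -0.43 ± 0.17), and Gars was not called (-0.20 ± 0.12, adjusted p = 0.144). Nars was at 238, 211, 194 and 212 CPM in the 4T1 controls and 494, 534, 498 and 283 CPM in the MT controls, and Sars at 188, 177, 169 and 185 CPM in the 4T1 controls and 359, 449, 398 and 278 CPM in the MT controls. Aars was at 158, 137, 131 and 166 CPM in the 4T1 controls and 213, 265, 230.2 and 227 CPM in the MT controls, and Wars at 85.4, 70.8, 88.7 and 87.0 CPM in the 4T1 controls and 112, 142, 126 and 64.9 CPM in the MT controls. Wars alone of these overlapped between the models, through MT control replicate 4.

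With the 6 Sox10-high MT libraries left out, which leaves control replicate 4 as the lone MT control with the spread taken from the other groups, 16 members were called, 13 lower and 3 higher in 4T1, beside 35.5% of all genes. Psat1 (-2.06), Phgdh (-1.31), Mthfd2 (-1.86), Asns (-1.51), Vldlr (-4.98) and Slc7a11 (2.19) were among these. Cebpb, Trib3, Aldh1l2, Cth, Pck2 and Nars lost their call, and Wars turned to 0.36 (adjusted p = 0.131).

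**Figure D2:**
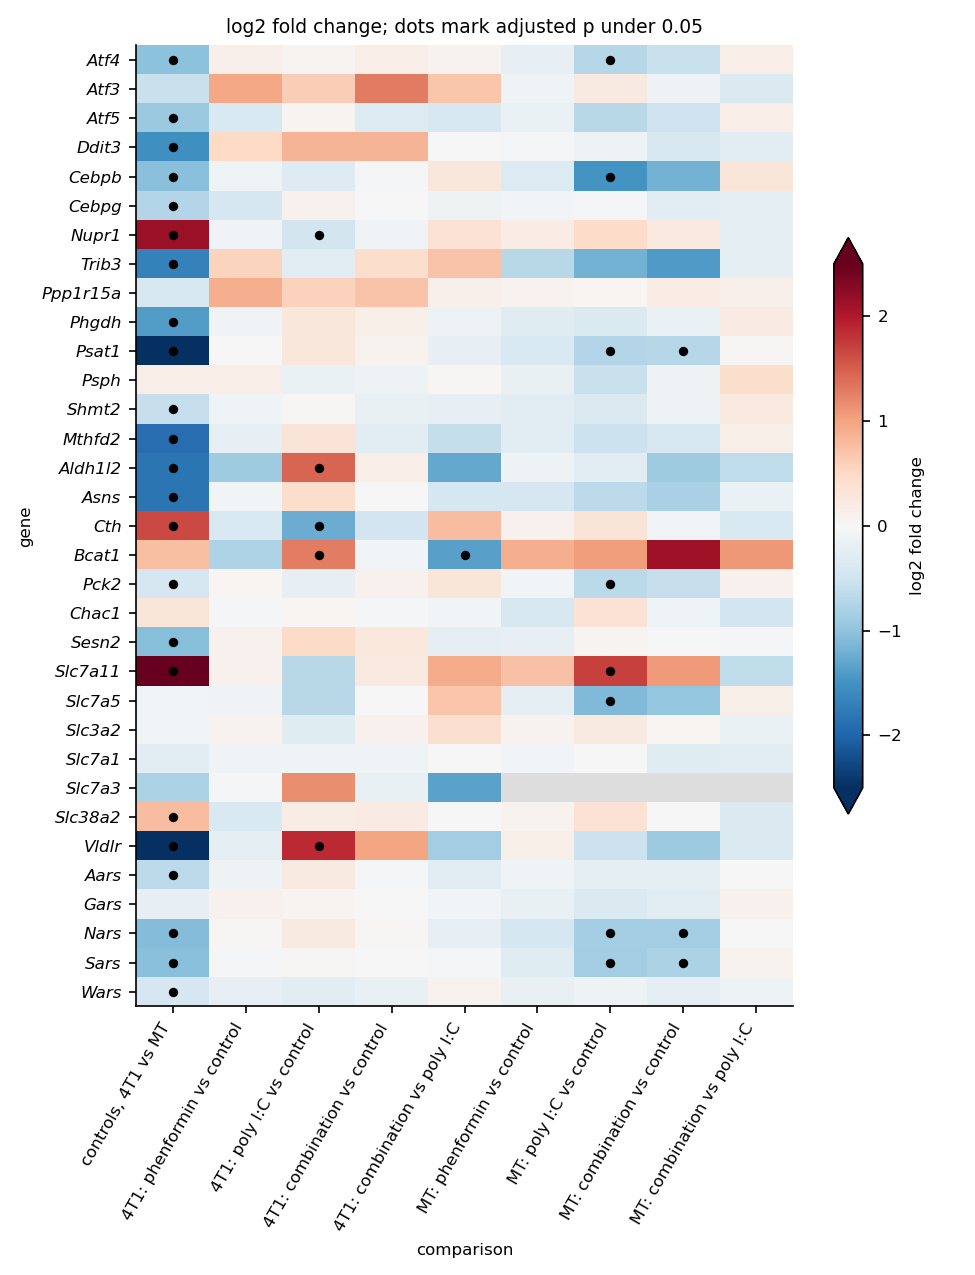
Log2 fold change (colour, limited at 2.5 in either direction) of the 33 members tested in at least 1 fit, one row per gene and one column per comparison; black dots mark adjusted p under 0.05 and grey cells were not tested. The first column holds 23 dots, the 2 columns of phenformin against control hold none, and poly I:C against control holds 5 dots in 4T1 and 8 in MT.

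Poly I:C in MT tumours went with lower levels of part of the module. Against control, 7 members fell and 1 rose among 32 tested (edgeR), where 19.6% of all 17857 genes were called, 11.1% lower and 8.52% higher. The median log2 fold change was -0.31 over the members and 0.01 over all genes. The 7 that fell were Sars, Pck2, Nars, Psat1, Atf4, Cebpb and Slc7a5, and the one that rose was Slc7a11.

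Sars, the cytosolic seryl-tRNA synthetase (GRCm38, chr3:108424865-108445209, minus strand), was at 359, 449, 398 and 278 CPM in control and at 256, 162, 172 and 213 CPM with poly I:C. The groups did not overlap, and the log2 fold change was -0.87 ± 0.21 (adjusted p = 0.0122). Nars, its asparaginyl counterpart, was at 494, 534, 498 and 283 CPM against 294, 219, 233 and 253 CPM (-0.84 ± 0.22, adjusted p = 0.0172). Here control replicate 4 lay inside the poly I:C range. Psat1 was at 349, 455, 400.5 and 263 CPM against 256, 193, 202 and 220.2 CPM (-0.74 ± 0.19, adjusted p = 0.0178), and Pck2 at 44.6, 43.9, 49.6 and 35.1 CPM against 33.2, 19.9, 25.8 and 28.3 CPM (-0.68 ± 0.17, adjusted p = 0.0163). For both, the lowest control was only just above the highest poly I:C library.

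Atf4 was at 301, 374, 296 and 290.4 CPM in control and at 296, 144, 140.0 and 188 CPM with poly I:C (-0.71 ± 0.19, adjusted p = 0.0224). Poly I:C replicate 1 lay within the control range and the other 3 below it. Cebpb, a dimer partner of ATF4, was at 266, 328, 251 and 151 CPM against 123, 70.0, 67.3 and 89.6 CPM, without overlap (-1.497 ± 0.42, adjusted p = 0.0245). Slc7a5 was at 147, 215, 134 and 75.8 CPM against 92.6, 49.1, 58.8 and 62.0 CPM (-1.11 ± 0.32, adjusted p = 0.0271). Slc7a11 rose from 5.21, 5.18, 5.56 and 18.2 CPM to 22.4, 32.6, 34.5 and 19.9 CPM (1.71 ± 0.57, adjusted p = 0.0479). Slc7a11 did not overlap its controls, though control replicate 4 came close, and Slc7a5 did.

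The fold changes of the rest of the serine and folate enzymes were negative and did not pass the test. Their log2 fold changes were -0.36 ± 0.16 for Phgdh (adjusted p = 0.122), -0.57 ± 0.22 for Psph (0.0775), -0.54 ± 0.19 for Mthfd2 (0.0582) and -0.36 ± 0.16 for Shmt2 (0.117). Phgdh was at 52.4, 42.7, 43.3 and 50.5 CPM with poly I:C, Mthfd2 at 75.3, 48.1, 59.6 and 60.02 CPM, and Shmt2 at 79.8, 63.3, 84.9 and 74.5 CPM, so that the last 2 overlapped their controls. DESeq2 called 12 members, the same 8 and Psph (adjusted p = 0.0497), Mthfd2 (0.0371), Slc38a2 (0.0338) and Gars (0.036), where it called 27.1% of all genes. Asns was at 108, 71.1, 59.6 and 77.5 CPM (-0.65 ± 0.26, adjusted p = 0.0914) and Trib3 at 45.5, 14.8, 11.8 and 19.97 CPM (-1.19 ± 0.50, adjusted p = 0.106). In both, poly I:C replicate 1 lay within the control range. Ddit3 was at 41.5, 24.9, 18.7 and 31.7 CPM (-0.12 ± 0.21), and Chac1 at 8.26, 1.90, 1.398 and 1.87 CPM (0.37 ± 0.50), its highest level of any library.

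**Figure D3:**
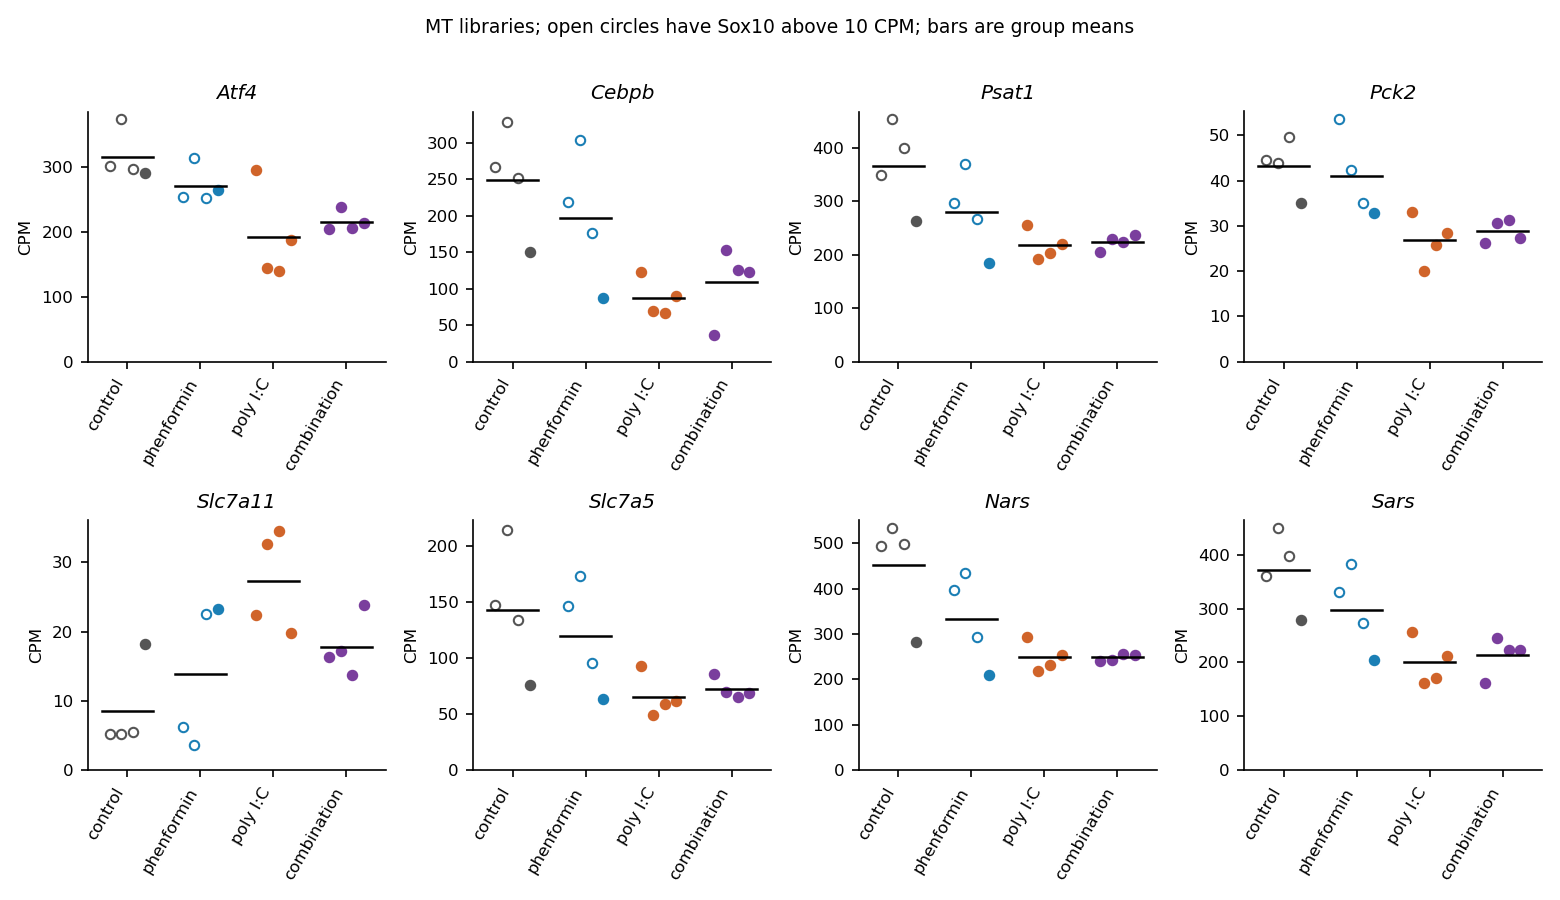
Level (CPM, linear axis from 0) in each MT library of the 8 members called with poly I:C against control; points are libraries, open circles have Sox10 above 10 CPM, bars are group means and colours are arms. Control replicate 4, the filled control point, lies on the poly I:C side of the other 3 controls in all 8 panels. The same share over all called genes was not taken.

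In MT the kind of library is confounded with poly I:C, since no library with poly I:C was Sox10-high. They cannot be told apart here. The fits below cannot separate them, since the omission leaves 1 control and the covariate partly follows poly I:C. For 8 of the 8 called members, control replicate 4 lay beyond the other 3 controls in the direction of poly I:C. The same share over all called genes was not taken, so this count does not set the members apart. Without the Sox10-high libraries, which leaves 1 control, none of the 8 was called, nor was any of the 18955 genes tested (0%); Psat1 stood at -0.25 (adjusted p = 0.604), Nars at -0.16 (0.779), Sars at -0.45 (0.55) and Slc7a11 at 0.62 (0.567). With the Krt5 to Sox10 ratio as a covariate none of the members was called either, beside 8.79% of all genes. The macrophage list (7 of 7 genes detected) summed to 345 to 460.1 CPM in MT control and 1144 to 1391 CPM with poly I:C, the fibroblast list (6 of 6) to 615 to 1099 and 1586 to 1905 CPM, and the endothelial list (4 of 4) to 98.3 to 159 and 236 to 381 CPM. No marker of these lists was at 0 in all MT libraries, and their part in the result was not tested. Sars was the only 1 of the 8 that kept its call when each control and poly I:C library was left out in turn. The count ranged from 1 (without poly I:C replicate 2) to 11 (without poly I:C replicate 1). For fits that left out 1 library, here and below, the share of all genes called is not given. Such counts therefore do not set the members apart.

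In 4T1 tumours poly I:C changed other members. Against control, 5 of 33 passed the test, 3 higher and 2 lower, where 6.32% of all 17445 genes were called, 3.26% higher and 3.06% lower. The median log2 fold change was 0.08 over the members and 0.01 over all genes. The members that rose were Bcat1, Vldlr and Aldh1l2, and those that fell were Cth and Nupr1.

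Bcat1 (GRCm38, chr6:144993835-145076184, minus strand) was at 10.8, 6.28, 7.07 and 10.2 CPM in control and at 17.2, 21.5, 30.03 and 13.4 CPM with poly I:C. It was 2.43-fold higher without overlap (log2 1.28 ± 0.23, adjusted p = 0.0101). Vldlr was at 5.86, 2.46, 5.74 and 4.16 CPM against 18.4, 11.9, 30.3 and 4.60 CPM (1.86 ± 0.43, adjusted p = 0.0252), and Aldh1l2 at 7.74, 2.95, 5.26 and 3.23 CPM against 13.3, 11.1, 21.7 and 5.80 CPM (1.46 ± 0.38, adjusted p = 0.0391). For both, poly I:C replicate 4 lay among the controls and the other 3 above them. Cth fell from 12.1, 12.1, 13.4 and 18.9 CPM to 4.99, 5.41, 2.56 and 10.47 CPM (-1.25 ± 0.31, adjusted p = 0.0327), and Nupr1 from 111, 115, 90.5 and 94.2 CPM to 70.3, 78.6, 76.2 and 71.6 CPM (-0.45 ± 0.13, adjusted p = 0.0472). Neither overlapped its controls.

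The core of the pathway did not pass the test in 4T1. Asns was at 48.2, 57.3, 40.8 and 43.7 CPM with poly I:C, above every control (0.45 ± 0.13, adjusted p = 0.0573). Ddit3 was at 26.3, 18.8, 25.3 and 9.02 CPM (0.85 ± 0.27, adjusted p = 0.0725), with 3 libraries above the controls and replicate 4 below them. Psat1 was at 75.7, 80.0, 64.3 and 81.4 CPM (0.28 ± 0.15), Phgdh at 24.8, 33.1, 23.4 and 30.2 CPM (0.28 ± 0.14) and Mthfd2 at 35.9, 29.0, 27.9 and 25.2 CPM (0.32 ± 0.17). These 3 overlapped their controls. Atf4 (161, 157, 180.0 and 149 CPM, 0.08 ± 0.12), Shmt2 (71.9, 71.4, 53.3 and 68.9 CPM, 0.03 ± 0.15), Chac1 (3.74, 4.33, 2.43 and 2.65 CPM, 0.05 ± 0.26) and Trib3 (17.7, 14.7, 10.99 and 10.3 CPM, -0.27 ± 0.26) lay within or near the control range. Slc7a11 and Slc7a5 stood at -0.70 ± 0.23 (adjusted p = 0.0838) and -0.70 ± 0.21 (0.0579). DESeq2 called 9 members, the same 5 and Asns, Ddit3, Slc7a11 and Slc7a5, where it called 11.3% of all genes.

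**Figure D4:**
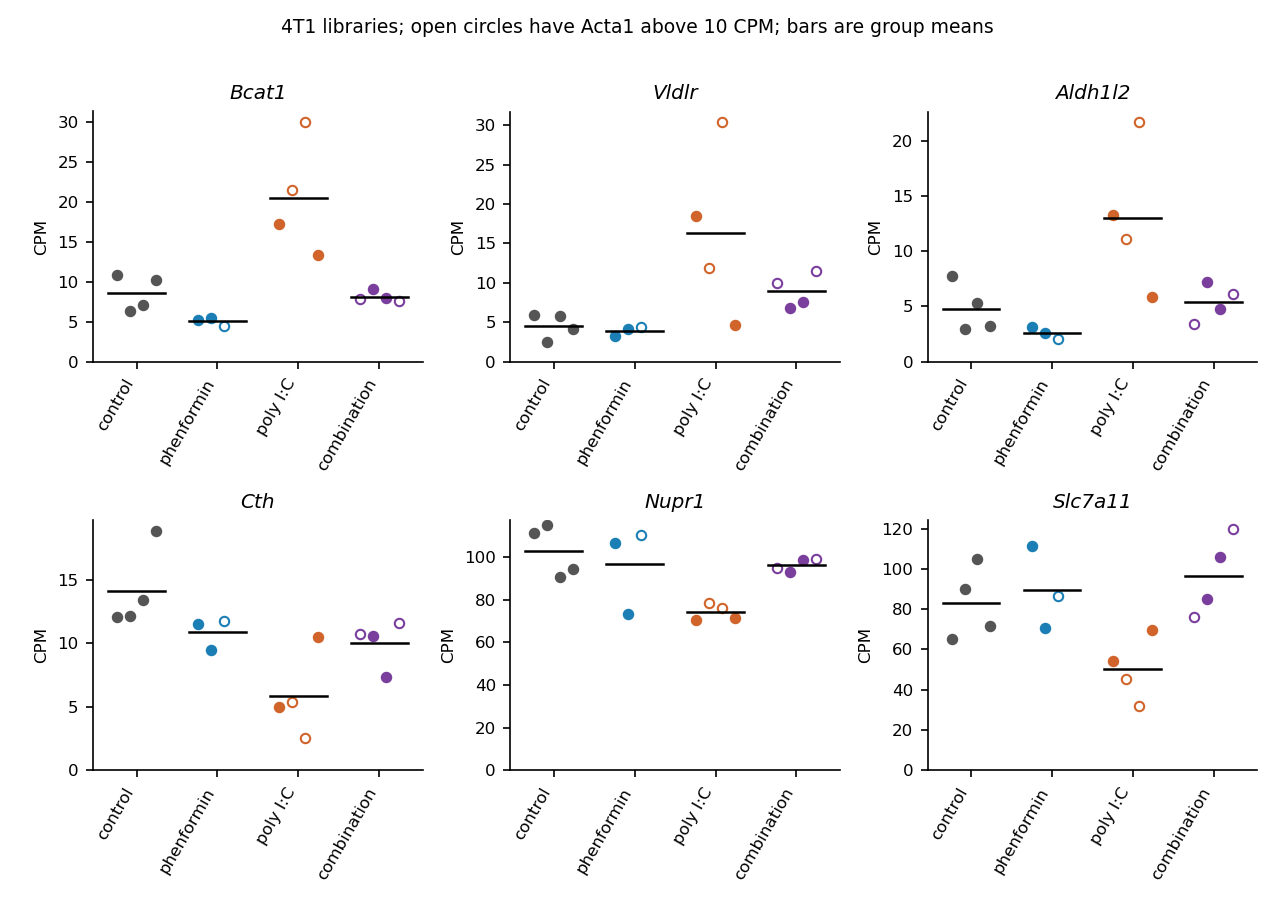
Level (CPM, linear axis from 0) in each 4T1 library of the 5 members called with poly I:C against control and of Slc7a11, which was not called; points are libraries, open circles have Acta1 above 10 CPM, bars are group means and colours are arms. Bcat1 is at 13.4 to 30.03 CPM with poly I:C alone and at or below 10.8 CPM in the other arms.

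Marker lists of other cell types moved with the same arm. The fibroblast list summed to 3154 to 4866 CPM in 4T1 control and 4949.95 to 12630.3 CPM with poly I:C, the skeletal muscle list (5 of 5 detected) to 15.9 to 19.8 and 19.2 to 183 CPM, and the macrophage list to 1437 to 1922 and 541 to 1058 CPM. The neutrophil list (7 of 7) summed to 73.1 to 159 CPM in control and to 694, 293, 840 and 42.3 CPM in poly I:C replicates 1 to 4, so that replicate 4 was low here as for Vldlr, Aldh1l2 and Ddit3. None of these markers was at 0 in all 4T1 libraries, and their part in the result was not tested. Without the libraries with Acta1 above 10 CPM, no member was called, nor any of the 17540 genes tested (0%), and the fold changes of the 5 kept their sign (Bcat1 0.85, adjusted p = 0.184). Bcat1 was the only 1 of the 5 that kept its call when each control and poly I:C library was left out in turn, and the count ranged from 1 (without control replicate 2, 3 or 4) to 8 (without poly I:C replicate 4).

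The response to poly I:C was then compared between the models in 1 fit of all libraries. Of 33 members, 9 differed, 7 with a higher and 2 with a lower log2 fold change in 4T1 than in MT, where 11.1% of all genes were called (5.7% higher, 5.42% lower). The 7 were Nars (difference 1.07 ± 0.25, adjusted p = 0.00717), Psat1 (1.01 ± 0.26, 0.0127), Sars (0.89 ± 0.24, 0.0166), Asns (1.09 ± 0.31, 0.0226), Vldlr (2.39 ± 0.69, 0.0275), Atf4 (0.77 ± 0.24, 0.0358) and Mthfd2 (0.86 ± 0.27, 0.0383). The 2 were Slc7a11 (-2.41 ± 0.62, adjusted p = 0.0137) and Cth (-1.58 ± 0.50, 0.0432). For Nars, Psat1, Sars, Asns, Atf4 and Mthfd2 the fold change with poly I:C was negative in MT and positive in 4T1, and for Slc7a11 it was positive in MT and negative in 4T1. None of these members was called in 4T1, and Asns and Mthfd2 were not called in MT either. In 4T1 the mean of Sars was 179.5 CPM in control and 179.8 CPM with poly I:C. That of Atf4 was 155.9 and 161.9 CPM, so for both the difference lay almost wholly in the MT fall. Without the Sox10-high MT libraries none of the 9 kept its call (Nars 0.36, adjusted p = 0.37; Slc7a11 -1.34, 0.167), and Wars was called in their place (-0.96, adjusted p = 0.0219). Without the Acta1-high 4T1 libraries 2 were called. Nars, Psat1, Sars and Slc7a11 kept their call in all 16 fits that each left out 1 library of the groups compared. The count ranged from 4 (without MT control replicate 2 or MT poly I:C replicate 2 or 3) to 15 (without MT control replicate 4). The shares of all genes called in these fits are not given.

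Averaged over both models and both phenformin states, 9 of 33 members differed with poly I:C, 7 lower and 2 higher. Of all genes, 21.3% were called (12.4% lower, 8.96% higher). In MT the kind of library is confounded with poly I:C, so this average cannot tell them apart. Pck2 (-0.35 ± 0.07, adjusted p = 0.00207), Slc7a5 (-0.62 ± 0.14, 0.00382), Sars (-0.34 ± 0.09, 0.00647), Cebpb (-0.66 ± 0.17, 0.00687), Nars (-0.27 ± 0.09, 0.033), Atf4 (-0.24 ± 0.09, 0.0419) and Psph (-0.25 ± 0.09, 0.0478) fell. Slc38a2 (0.26 ± 0.07, adjusted p = 0.014) and Bcat1 (1.05 ± 0.33, 0.0261) rose. Bcat1 spanned 2.18 to 11.5 CPM in MT control and 5.60 to 56.8 CPM in MT combination, whose highest library was replicate 1, the MT library with poly I:C lowest in Krt5. Psph was at 27.3, 26.8, 25.9 and 31.6 CPM in 4T1 control and 24.3, 26.9, 23.9 and 23.3 CPM in 4T1 poly I:C. In MT it was at 21.0, 29.2, 26.3 and 22.5 CPM and 18.2, 13.3, 17.9 and 16.8 CPM, lower without overlap. Slc38a2 was at 282, 337, 310.1 and 421 CPM in 4T1 poly I:C, overlapping its controls, and at 238, 224, 198 and 239.9 CPM in MT poly I:C, above all of them. Without the Sox10-high libraries 0 of 33 were called in this average, and Nars turned to 0.10 (adjusted p = 0.426).

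Phenformin alone, the complex I inhibitor, changed no member by edgeR. Against control it called 0 of 33 members in 4T1 (6 at an unadjusted p under 0.05, and 1 by DESeq2). In MT it called 0 of 32 (0 and 0), and edgeR called 0% of all genes in either model after adjustment. The share of all genes at an unadjusted p under 0.05 was not taken, here or in the comparisons below. Those unadjusted counts therefore do not set the members apart. Where DESeq2 called a member in 4T1, its share of all genes is given in the closing section. The smallest p in 4T1 belonged to Cebpg, an ATF4 partner, at 95.4, 109, 109 and 89.6 CPM in control and 72.5, 78.4 and 74.7 CPM with phenformin. The groups did not overlap (-0.43 ± 0.11, adjusted p = 0.209 by edgeR and 0.0272 by DESeq2). Bcat1 (-0.76 ± 0.25, adjusted p = 0.322), Ppp1r15a (0.91 ± 0.31, 0.335) and Atf5 (-0.39 ± 0.15, 0.395) followed. Atf4 stood at 139, 158 and 216 CPM, Ddit3 at 13.8, 12.8 and 20.7 CPM, and Trib3 at 30.1, 13.8 and 28.7 CPM, with replicate 4 highest in the first 2. Ddit3 lay above every control in all 3 libraries. Atf3 and Ppp1r15a were also highest in replicate 4, at 54.5 and 37.1 CPM, the one phenformin library in 4T1 with Acta1 above 10 CPM.

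The metabolic core members did not pass the test with phenformin in 4T1 either. Psat1 was at 51.3, 79.3 and 57.8 CPM, Phgdh at 22.3, 22.1 and 22.1 CPM, Shmt2 at 52.5, 71.3 and 61.3 CPM, Mthfd2 at 16.3, 27.5 and 18.9 CPM, Asns at 29.9, 33.8 and 37.8 CPM and Chac1 at 2.45, 3.44 and 3.51 CPM. Each overlapped its controls. In MT the smallest p-values were those of Psat1 (296, 371, 267 and 185 CPM, -0.38 ± 0.19, adjusted p = 0.815), Nars (397, 435, 293 and 209 CPM, -0.43 ± 0.22, 0.817), Phgdh (36.8, 54.2, 62.0 and 44.2 CPM, -0.30 ± 0.16, 0.824) and Shmt2 (63.4, 80.7, 84.4 and 92.4 CPM, -0.27 ± 0.16, 0.832). For Psat1 and Nars the libraries with high Krt5, replicates 3 and 4, were the lowest of the arm.

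Averaged over both models and both poly I:C states, phenformin called 0 of 33 members (6 at an unadjusted p under 0.05, 0 by DESeq2), beside 0.0158% of all genes (0.0106% higher, 0.00528% lower). The smallest p-values were those of Aldh1l2 (-0.73 ± 0.22, adjusted p = 0.213), Cebpg (-0.21 ± 0.07, 0.285), Asns (-0.28 ± 0.11, 0.386) and Mthfd2 (-0.23 ± 0.10, 0.424), each negative. Between the models the phenformin response differed for 0 of 33 members (2 at an unadjusted p under 0.05, 0 by DESeq2), beside 0% of all genes; the smallest p-values were those of Slc38a2 (-0.44 ± 0.21), Trib3 (1.27 ± 0.61), Ppp1r15a (0.85 ± 0.43) and Gars (0.33 ± 0.17). Misses of the threshold at this group size do not show that levels were the same.

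The combination of poly I:C and phenformin in 4T1 called 0 of 33 members against control (5 at an unadjusted p under 0.05, 1 by DESeq2), beside 0% of all genes. The smallest p-values were those of Ddit3, Atf3, Atf5 and Ppp1r15a. Ddit3 was at 20.2, 14.7, 23.3 and 20.7 CPM, above all 4 controls (0.84 ± 0.27, adjusted p = 0.209). Atf3 was at 71.5, 24.7, 32.1 and 21.8 CPM, also above all controls (1.29 ± 0.42, adjusted p = 0.217 by edgeR and 0.0481 by DESeq2). Ppp1r15a stood at 0.71 ± 0.29 (adjusted p = 0.347) and Atf5 at -0.35 ± 0.14 (0.316). Atf4 was at 171, 169.6, 181 and 173 CPM, above the controls by a small margin, and Trib3 at 29.1, 15.4, 22.0 and 21.4 CPM.

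Against poly I:C alone, the combination in 4T1 went with lower Bcat1 and called no other of the 33 members, where 0.246% of all genes were called (0.0974% lower, 0.149% higher). Bcat1 was at 7.82, 9.09, 7.94 and 7.56 CPM with both agents and at 13.4 to 30.03 CPM with poly I:C alone, with no overlap (-1.35 ± 0.23, adjusted p = 0.0437). Slc7a11 (0.94 ± 0.23, adjusted p = 0.0661), Slc3a2 (0.40 ± 0.10, 0.0803) and Mthfd2 (-0.60 ± 0.17, 0.0929) came next. Slc7a11 was at 76.0, 84.9, 106 and 119.7 CPM, above every library of poly I:C alone. Mthfd2 at 21.3, 20.3, 17.5 and 19.0 CPM was below every one of them. Asns was at 43.1, 30.9, 33.7 and 32.2 CPM, Psat1 at 78.2, 74.4, 51.0 and 59.6 CPM, Phgdh at 27.3, 26.9, 21.7 and 25.8 CPM, Shmt2 at 61.6, 64.2, 54.4 and 49.9 CPM and Chac1 at 4.40, 2.31, 3.28 and 2.58 CPM. These 5 overlapped the poly I:C arm. DESeq2 called 7 members, Bcat1 with Mthfd2, Aldh1l2, Asns, Slc7a11, Slc7a5 and Slc3a2, beside 5.43% of all genes, and the count of edgeR ranged from 0 to 8 over the fits that left out 1 library, the highest without poly I:C replicate 4. Without the Acta1-high libraries Bcat1 stood at -0.87 (adjusted p = 0.603), where 0% of all genes were called. The fibroblast list summed to 3865 to 4921 CPM in the combination, below every library of poly I:C alone, and the macrophage list to 948 to 1562 CPM, overlapping its range; their part was not tested.

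Against phenformin alone, the combination in 4T1 called 0 of 33 members (6 at an unadjusted p under 0.05, 2 by DESeq2), beside 0% of all genes; Cebpg stood at 0.42 ± 0.11 (adjusted p = 0.204), Slc38a2 at 0.58 ± 0.16 (0.226), Bcat1 at 0.70 ± 0.25 (0.317) and Vldlr at 1.22 ± 0.48 (0.349). The interaction, which asks whether poly I:C acted differently with phenformin than without it, also called 0 of 33 (5 at an unadjusted p under 0.05, 0 by DESeq2), beside 0% of all genes. Its smallest p-values were those of Slc7a5 (0.79 ± 0.30, adjusted p = 0.505), Cth (1.15 ± 0.45, 0.506), Nupr1 (0.46 ± 0.18, 0.51) and Slc7a11 (0.83 ± 0.34, 0.516). All 4 were positive, against negative fold changes with poly I:C alone. The arms share their control and poly I:C libraries, so these values are not independent of the comparisons given before.

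In MT 3 of 32 members fell with the combination against control, Nars, Sars and Psat1, where 6.14% of all genes were called (3.33% lower, 2.81% higher). Nars was at 241, 244, 256 and 254 CPM (-0.86 ± 0.22, adjusted p = 0.0406), Sars at 162, 245, 223 and 223 CPM (-0.80 ± 0.21, 0.044) and Psat1 at 205, 229, 224 and 238 CPM (-0.71 ± 0.19, 0.0463). Each lay below all 4 controls, which were the same libraries as in the poly I:C comparison. Pck2, next by p, stood at -0.58 ± 0.17 (adjusted p = 0.0583). Without the Sox10-high libraries none of the 3 was called (Nars -0.17, Sars -0.36, Psat1 -0.21), where 0% of all genes were, and the count was 10 without control replicate 4.

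Other members of the MT combination arm overlapped their controls or lay below them without a call. Atf4 was at 203, 238, 206 and 213 CPM (-0.55 ± 0.19, adjusted p = 0.091), Asns at 40.7, 87.2, 82.4 and 72.7 CPM (-0.81 ± 0.26, 0.0705) and Trib3 at 7.80, 24.5, 25.7 and 20.5 CPM (-1.42 ± 0.50, 0.0913). All 3 were below every control, with replicate 1 lowest. Ddit3 was at 17.0, 26.0, 25.2 and 28.4 CPM, Phgdh at 53.0, 54.3, 47.5 and 63.3 CPM, Mthfd2 at 91.2, 59.2, 50.5 and 70.7 CPM, Shmt2 at 108, 77.1, 81.4 and 92.1 CPM and Chac1 at 1.52, 3.13, 2.54 and 2.44 CPM. Replicate 1 was lowest for Ddit3 and Chac1 and highest for Mthfd2 and Shmt2.

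Against poly I:C alone the MT combination called 0 of 32 members (1 at an unadjusted p under 0.05, 0 by DESeq2), beside 0% of all genes, and against phenformin alone 0 of 32 (3 and 0), beside 0.106% (0.0784% higher, 0.028% lower). The smallest p-values against poly I:C were those of Slc38a2 (-0.36 ± 0.13), Psph (0.44 ± 0.22), Slc7a1 (-0.29 ± 0.16) and Shmt2 (0.24 ± 0.16), and against phenformin those of Pck2 (-0.51 ± 0.17), Sars (-0.49 ± 0.21), Slc7a5 (-0.73 ± 0.32) and Vldlr (-1.05 ± 0.50). The interaction in MT called 0 of 32 (3 and 0), beside 0%; Slc38a2 (-0.44 ± 0.18), Shmt2 (0.51 ± 0.22), Phgdh (0.49 ± 0.23) and Psph (0.62 ± 0.30) had the smallest p-values. The combination response differed between the models for 2 of 33 members, both with a higher log2 fold change in 4T1, where 4.56% of all genes were called (2.26% higher, 2.29% lower): Nars (0.88 ± 0.25, adjusted p = 0.0418) and Ddit3 (1.24 ± 0.35, 0.0443), followed by Pck2 (0.67 ± 0.20, 0.0543) and Sars (0.78 ± 0.24, 0.0555). Ddit3 lay above every control in the 4 combination libraries of 4T1 and below every control, by a narrow margin, in those of MT. Neither was called without the Sox10-high libraries, and the count was 13 without MT control replicate 4.

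A further 3 members were close to the limit of detection. Gdf15 and Fgf21, the secreted hormones of mitochondrial and amino acid stress, had at most 10 and 12 reads in a library (0.61 and 0.721 CPM) and entered no test. Their changes were not detectable at this depth. Slc7a3 had 1 to 20 reads over the libraries of both models (0.063 to 1.28 CPM), was tested in 4T1 and in the joint fit and was called in neither.

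The genes around the module were counted from 6 further lists of 83 genes. In the control tumours, where 51.9% of all genes were called (25.2% lower, 26.7% higher), 6 of 8 mitochondrial chaperones and proteases were lower in 4T1, led by Hspe1, the mitochondrial co-chaperonin (-1.59 ± 0.18, adjusted p = 7.99e-08), and Hspa9, the mitochondrial HSP70 (-0.83 ± 0.14, 2.07e-05). Of 15 further ATF4 targets 4 were lower and 3 higher, with Pycr1, a proline synthesis enzyme (-3.69 ± 0.35), and Gpt2, an alanine aminotransferase (-1.92 ± 0.23), lowest in p. Of the 21 genes of the ATF6 and XBP1 branch of the unfolded protein response 10 were lower and 2 higher, and the 2 were Ern1 (adjusted p = 1.17e-09), the IRE1 sensor, and Atf6 (1.49 ± 0.15). Of 15 other cytosolic tRNA synthetases 7 were lower and 1 higher (Farsb -1.62 ± 0.19, Vars 1.64 ± 0.17). Of 14 genes for eIF2 kinases, phosphatase and eIF2B subunits 5 were lower and 2 higher (Eif2b4 -0.71 ± 0.12, Impact 1.17 ± 0.16), and of 9 genes of the cytosolic folate cycle and glycine cleavage 5 were lower and 2 higher (Shmt1 -1.15 ± 0.14, Amt -2.18 ± 0.48).

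With poly I:C in MT, where 11.1% of all genes fell and 8.52% rose, 5 of the 15 other tRNA synthetases fell and none rose, led by Hars (-0.95 ± 0.15, adjusted p = 0.00201) and Farsa (-0.52 ± 0.11, 0.00838). The mitochondrial chaperones and proteases fell in 4 of 8 (Hspe1 -0.66 ± 0.15, Clpp -0.50 ± 0.13), and the eIF2 list in 4 of 14, with Dele1, which relays mitochondrial stress to the eIF2 kinase HRI (-0.73 ± 0.17, adjusted p = 0.0118), and Eif2b1 (-0.75 ± 0.20) lowest in p. Gldc, the glycine decarboxylase, was the 1 of 9 folate and glycine cleavage genes that changed (3.02 ± 0.48, adjusted p = 0.00197). In the ATF6 and XBP1 list 2 of 21 fell and 1 rose (Manf -0.65 ± 0.19, Atf6 0.47 ± 0.15), and of the further ATF4 targets 1 of 15 fell and 1 rose (Eif4ebp1 -0.85 ± 0.24, Jdp2 0.71 ± 0.22). For these lists too, the kind of MT library is confounded with poly I:C, and they cannot be told apart.

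With poly I:C in 4T1, where 6.32% of all genes were called, 1 gene changed in each of 4 lists of 8 to 21 genes, near that share. Eif2ak2, which encodes the double-stranded RNA sensor and eIF2 kinase PKR, rose by 0.35 ± 0.09 on the log2 scale (adjusted p = 0.0419). Mthfd1l, the mitochondrial formyltetrahydrofolate synthetase (0.56 ± 0.10, adjusted p = 0.0116), and Hsp90b1, an endoplasmic reticulum chaperone (0.40 ± 0.10, 0.0287), rose, and Clpp, a mitochondrial protease subunit, fell (-0.47 ± 0.11, 0.0286). The other 2 lists had no call. With phenformin none of the 6 lists had a called gene in either model.

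Variation within arms was set against that of Asns. Levels on the log2 scale were centred on their arm mean, so that arm differences play no part, and 64 relations were tested. Over the 15 libraries of 4T1, 3 of 32 members passed after Benjamini-Hochberg adjustment of permutation p-values for Pearson's r, and 2 for Spearman's rho. Chac1 had r = 0.846 and rho = 0.825 (permutation p = 0.00103 and 0.00334, adjusted p = 0.019 and 0.0318), Nars r = 0.812 and rho = 0.864 (p = 0.00178 and 0.00021, adjusted 0.019 and 0.0134), and Aars r = 0.771 and rho = 0.689 (p = 0.00476 and 0.0143, adjusted 0.0254 and 0.0574). Without the 2 libraries farthest from the median of Asns, r was 0.795, 0.821 and 0.694. The median r was 0.298 over the 32 members and 0.00472 over all genes. The share of all genes that pass with Asns in 4T1 was not taken, so the counts of members passing do not set them apart.

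In MT only the 8 libraries of poly I:C and combination were used, since control and phenformin mix both kinds of library. There 15 of 32 members passed by r and 11 by rho (exact test over 576 permutations within arms), with a median r of 0.786. Of the 32, 23 had a positive r, and Bcat1 passed with a negative r of -0.844 (adjusted p = 0.0494). Of the serine and folate enzymes, Aldh1l2 passed (r = 0.944), while Phgdh (0.306), Psph (-0.595), Shmt2 (-0.585) and Mthfd2 (-0.356) did not. These libraries vary widely within arms: 38.7% of all genes and 20 of the 32 members had an unadjusted exact permutation p under 0.05 with Asns, and the median r over all genes was 0.00535. Combination replicate 1 stood apart, with the lowest Asns (40.7 CPM), an epithelial marker sum of 919 CPM against 2985 to 5345 CPM in the other 7, and a B and plasma cell sum of 14255 CPM. Without it the median r of the members was 0.798 and that of all genes 0.037. Slc3a2 (r = 0.98, rho = 1, exact permutation p = 0.00174, adjusted p = 0.019 and 0.0222) and Trib3 (r = 0.974, rho = 0.976, exact permutation p = 0.00347 and 0.00868, adjusted p = 0.0202 and 0.0427) were among the closest. Without combination replicate 1, r was 0.996 and 0.976, and without the 2 libraries farthest from the median 0.992 and 0.922. For Sesn2 it dropped from 0.867 to 0.324 and for Psat1 from 0.775 to 0.17, and neither had passed after adjustment by r (0.0611 and 0.0808). The libraries of a relation share their depth and tissue makeup, whose part was not tested.

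**Figure D5:**
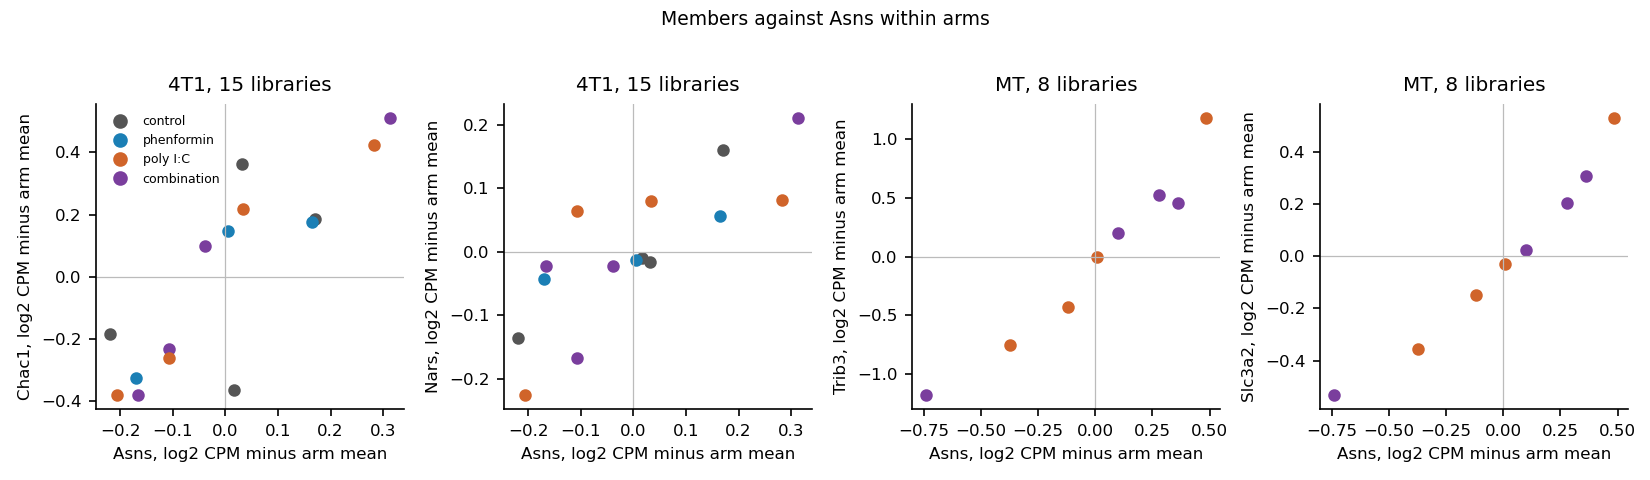
Level of Chac1 and Nars in 15 libraries of 4T1 and of Trib3 and Slc3a2 in 8 MT libraries with poly I:C or the combination (y axis) against Asns (x axis), each as log2 CPM minus the mean of its arm; points are libraries and colours are arms. The points rise from lower left to upper right in each panel, with r of 0.846, 0.812, 0.974 and 0.98.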

How the data were processed

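The authors deposited raw read counts per gene from polyA RNA libraries made with a strand-specific TruSeq kit, per the labels' protocols. Trimmomatic 0.32.48, STAR 2.3.0 and featureCounts 1.4.4 are listed with mm10 and GRCm38, per the submitters' processing notes. The annotation release and the strand setting of counting are not given in the sources used here. In GENCODE, 11 members share exon bases with a gene on the opposite strand (Atf5, Ddit3, Cebpb, Cebpg, Ppp1r15a, Psph, Shmt2, Aldh1l2, Bcat1, Pck2 and Aars). Ddit3, Cebpg and Aars also share exon bases with an entry on the same strand (a further Ddit3 entry, Gm44836 and Exosc6). The counts of all these members are uncertain to that extent. Counts were tested in edgeR 4.0.16 (R 4.3.3; filterByExpr with minimum count 10 and total 15, TMM, quasi-likelihood F-test, arm as the only term), with 1 fit per model and 1 joint fit of the 8 groups. Standard errors are the fold change divided by the square root of F. Alternatives were DESeq2 1.42.0, its size factors, other filters, a replicate block, only the compared groups, libraries left out and a Krt5 to Sox10 covariate. Correlations used log2(CPM + 0.125) and 100000 resamples in 4T1. The scripts were tested on simulated data. No 2 libraries of a group agreed within sampling noise. Whether replicates are separate animals is not stated; if they are not, p-values measure technical spread. Members and lists were chosen with earlier results of these data known. Per comparison, called members are named, with those of smallest p added up to 4, and at most 2 called genes of each further list; per-library values cover called members and 9 named core genes. Of 15 listed eIF2 genes, 14 matched the table. Promoter stretches were chosen among called members with a match, smallest p first, and 1 of them is not reported here.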

Additional observations from a re-analysis of the deposited data

Results flagged for a closer look

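Within their groups, 11 levels stood apart in groups of 4 by Dixon's test at 95%, out of 231 groups checked, where chance flags about 1 in 20 groups. In MT control these were Atf4 at 374 CPM and Phgdh at 74.8 CPM in replicate 2, Slc38a2 at 159 CPM in replicate 3, and Nupr1 at 36.3 CPM, Slc7a11 at 18.2 CPM and Nars at 283 CPM in replicate 4. In MT poly I:C, Chac1 was at 8.26 CPM in replicate 1, with the other 3 libraries at 1.398 to 1.90 CPM. In 4T1 these were Shmt2 at 53.3 CPM and Nars at 211 CPM in poly I:C replicate 3, Pck2 at 33.6 CPM in combination replicate 2 and Slc7a1 at 89.0 CPM in control replicate 1.

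The response to poly I:C differed between the models (edgeR test of the difference, 4T1 minus MT, log2 scale) for Atf4 by 0.772, Psat1 by 1.01, Mthfd2 by 0.86, Asns by 1.09, Cth by -1.58, Slc7a11 by -2.41, Vldlr by 2.39, Nars by 1.07 and Sars by 0.89. The response to the combination differed for Ddit3 by 1.24 and for Nars by 0.884. Of all genes, 11.1% were called for the poly I:C response and 4.56% for the combination response. In MT the kind of library is confounded with poly I:C, so these differences cannot tell them apart.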

How the results depend on the processing

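Counts of called members under other settings, each followed by the share of all genes called there, were as follows. For 4T1 poly I:C against control (5, 6.32%), DESeq2 gave 9 (11.3%), a replicate block 3 (4.76%), only the compared groups 1 (2.42%), and leaving out libraries with Acta1 above 10 CPM or Igkc above 100 CPM 0 (0%) and 2 (1.49%). For 4T1 combination against poly I:C (1, 0.246%), DESeq2 gave 7 (5.43%), the block 0 (0.0172%), only the compared groups 0 (0%), and those omissions 0 (0%) and 0 (0.00574%). DESeq2 gave 1 (0.997%), 1 (2.29%) and 2 (1.03%) for 4T1 phenformin against control, combination against control and combination against phenformin (0 each, 0%). For MT poly I:C against control (8, 19.6%), leaving out libraries with Sox10 above 10 CPM gave 0 (0%) and the Krt5 to Sox10 covariate 0 (8.79%). For MT combination against control (3, 6.14%), DESeq2 gave 9 (16.6%), the replicate block 1 (3.5%), no filter 0 (1.25%), only the compared groups 0 (0.305%), and the Sox10 omission and the covariate 0 (0%). For the poly I:C response between models (9, 11.1%), the Acta1 and Sox10 omissions gave 2 (4.85%) and 1 (2.27%). For the combination response (2, 4.56%), DESeq2 gave 8 (11.1%), the block 1 (3.7%), no filter 0 (1.52%), and the omissions 0 (0.251%) and 0 (0.0151%). For the poly I:C average (9, 21.3%), the omissions gave 3 (7.9%) and 0 (6.03%). In the Sox10 omission Wars turned to 0.36 in the control comparison and Nars to 0.10 in the poly I:C average; the cause was not tested, but this setting leaves 1 MT control and 1 MT phenformin library.

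Leaving out 1 library at a time moved the counts over 1 to 8 (4T1 poly I:C), 0 to 8 (4T1 combination against poly I:C), 1 to 11 (MT poly I:C), 0 to 10 (MT combination), 21 to 23 (controls), 4 to 15 (poly I:C response), 0 to 13 (combination response) and 6 to 11 (poly I:C average); the other counts stayed at 0. Deviations of libraries with the same replicate number correlated at -0.54 to 0.24 in 4T1 and -0.82 to 0.77 in MT, with medians of -0.00 and 0.06 (0.01 and 0.00 for different numbers), so not every pair deviated together and the replicate block is given here only. The counts with 1 library left out are given without the share of all genes called, so they do not set the members apart. The setting with only the compared groups was not run for the interactions and the joint fit. Groups of 3 or 4 libraries limit the precision of every comparison, and Gdf15 and Fgf21 had too few reads to be tested. The Asns relations without MT combination replicate 1 and the shares over all genes beside them were added after the data were seen.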
